A study of Sus scrofa with 12 samples.

Results

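The files listed 439670 assembled transcripts in 12 libraries of Iberian pig longissimus dorsi, the loin muscle, and 2571 of them (0.585%) had a summed exon length under 200 bases. These short transcripts were taken by length alone, on chromosomes and unplaced scaffolds alike. There were between 163 (library L3) and 286 (library H4) of them per library. They were 41 to 199 bases long with a median of 140 bases, 162 were spliced and 1347 carried no strand. Joined across libraries when they shared at least 1 exonic base, they made 1068 distinct loci, 1032 of them on chromosomes.

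Each library came from total RNA of the muscle of 1 castrated male purebred Iberian pig fattened outdoors on acorns and grass, and was sequenced as read pairs. The 6 pigs of group H had a high and the 6 pigs of group L a low breeding value for intramuscular fat. By the sample labels their measured intramuscular fat was 10.62 to 13.8% in H and 1.7 to 2.28% in L. The study reports a mean for L that is above each of these L values, and this difference was not resolved here. The assembly of each library was made by itself with Cufflinks on genome build Sscrofa11.1. No transcript of the files lay on the mitochondrial sequence. The muscle label was checked on transcripts of at least 200 bases. The summed FPKM of the skeletal muscle markers was 25578 to 38059 in H and 28105 to 33571 in L. No transcript was listed at the skeletal alpha actin gene ACTA1 in any of the libraries, at TTN in 10 and at CKM in 2. The marker MB was not found in the annotation used.

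Assemblers join reads that overlap on the genome into transcripts, and FPKM is the number of sequenced fragments of a transcript per kilobase, scaled to 1000000 mapped fragments. Cufflinks does not divide by the full length but by an effective length, the number of positions at which a fragment of the library could start, and this number becomes small when the transcript is shorter than most fragments. Short assembled pieces of a muscle transcriptome can hold a small RNA, a piece of a longer transcript that was covered in patches, or a sequence that is repeated elsewhere in the genome. Most messenger RNAs end in a poly(A) tail that is not encoded in the genome, whereas the genome also holds runs of adenine or thymine of its own.

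The sequences with the highest FPKM are shown first, because they hold most of the FPKM of every library. They were read from the reference at the start and end that most libraries gave for each locus (the one of higher FPKM where tied), on the forward strand unless another strand is named, and capitals mark an uninterrupted run of at least 20 A or T. The first lies between genes at chr7:22961737-22961784, 2332 bases from SLA-2, a class I gene of the swine major histocompatibility complex. The second lies in an intron of the adhesion receptor gene TENM2 at chr16:56796725-56796781. The third lies 1929 bases from MFAP5, a microfibril protein gene, at chr5:62759451-62759503, and the fourth between genes at chr8:125678829-125678907. The last is the locus that held the shortest transcripts, in an intron of PIBF1, which encodes a centrosomal protein, at chr11:45329970-45330012.
chr7 near SLA-2: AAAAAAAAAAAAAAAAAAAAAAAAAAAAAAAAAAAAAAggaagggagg
chr16 in TENM2: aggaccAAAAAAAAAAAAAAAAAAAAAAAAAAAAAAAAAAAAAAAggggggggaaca
chr5 near MFAP5: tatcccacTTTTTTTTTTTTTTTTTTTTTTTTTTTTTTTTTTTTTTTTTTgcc
chr8 between genes: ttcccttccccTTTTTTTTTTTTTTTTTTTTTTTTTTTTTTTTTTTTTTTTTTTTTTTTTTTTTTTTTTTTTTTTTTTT
chr11 in PIBF1: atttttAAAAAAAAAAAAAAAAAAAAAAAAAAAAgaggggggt

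All 12 loci of highest median FPKM held such a run. In these 5 the run was 38, 39, 42, 68 and 28 bases long, in the order printed. Over all libraries 108 loci held an uninterrupted run of at least 20 A or T, 61 of them A and 47 T, with a median run of 32 bases and a longest of 68. In 17 of the 108 (15.7%) the run was bordered by at least 5 G after A, or at least 5 C before T, which also held for 217 of the 209919 runs of that length on the chromosomes (0.103%). Among the 17 loci of these that were found in at least 6 libraries and were under 60 bases, 10 (58.8%) had that border. It can be seen in the locus of TENM2 above and in the last 2 of the following, which lie in an intron of ESX1 (chrX:85002699-85002749), a homeobox gene, and between genes at chr3:48257929-48257974. The locus in an intron of GPX6 (chr7:22260540-22260607), a glutathione peroxidase gene, is 68 bases long and does not have that border, since another base stands between its run of A and the G that follow.
chr7 in GPX6: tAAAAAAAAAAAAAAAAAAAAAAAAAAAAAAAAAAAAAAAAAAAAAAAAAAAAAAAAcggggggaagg
chrX in ESX1: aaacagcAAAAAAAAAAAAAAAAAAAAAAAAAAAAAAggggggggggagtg
chr3 between genes: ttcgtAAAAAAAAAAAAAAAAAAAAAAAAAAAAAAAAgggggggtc

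Other short loci had a lower median FPKM than the loci printed above but many fragments. A locus on the reverse strand at chr9:52114114-52114235 near HEPN1 matched the 18S ribosomal RNA at 98.4% over 122 bases. It was found in all 12 libraries with 1610 to 10126 fragments, at 7945, 23417 and 33886 FPKM (lowest, median and highest pig) in H and 6100, 8078 and 35314 FPKM in L. The groups overlapped. Capitals mark its 2 bases that differ. This locus was named after its values were seen.
chr9 near HEPN1, reverse strand: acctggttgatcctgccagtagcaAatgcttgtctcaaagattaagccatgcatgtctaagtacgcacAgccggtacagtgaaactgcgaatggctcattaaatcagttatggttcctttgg

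Another pair of loci matched the mitochondrial genome. The first, between genes at chr15:126762186-126762349, matched at 96.3% identity over 164 bases. Its match overlapped the genes of the threonine and proline transfer RNAs and the control region. The second, in an intron of SPOCK3, a testican gene, at chr14:21808484-21808670, matched the NADH dehydrogenase subunit 1 gene at 97.3% over 182 bases. Capitals mark the bases that differ from the mitochondrial genome or lie past the match. Both were found in all 12 libraries and were named after their values were seen.
chr15 mitochondrial copy: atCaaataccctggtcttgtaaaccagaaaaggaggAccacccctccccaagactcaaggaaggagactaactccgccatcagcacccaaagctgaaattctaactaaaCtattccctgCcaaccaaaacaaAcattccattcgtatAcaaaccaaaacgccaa
chr14 in SPOCK3: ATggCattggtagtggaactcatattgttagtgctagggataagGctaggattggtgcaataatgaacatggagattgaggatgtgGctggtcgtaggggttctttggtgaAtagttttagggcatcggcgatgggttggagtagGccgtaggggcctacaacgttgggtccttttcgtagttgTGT

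The short transcripts carried 98.6 to 99.5% of the summed FPKM of a library. They carried 43.3 to 63.2% of the sum of coverage times length of a library, which is called covered bases here. This sum rests on the coverage values as listed and is not a count of sequenced bases. The number of fragments behind each transcript is not listed, and it was estimated from the confidence interval that Cufflinks gives around each FPKM. By this estimate the short transcripts held 0.152 to 0.494% of the fragments of a library. The libraries held 47.5 to 73.3 times 1000000 mapped fragments by the same estimate, and a number of fragments scaled to 1000000 of its library is called normalised fragments here. The median short transcript rested on 16.4 fragments with quartiles of 11.9 and 31 fragments, 2097 of them (81.6%) on under 40 fragments, and 4 on under 9. At the other end 113 transcripts at 14 loci rested on at least 1000 fragments, with a highest of 194582.

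FPKM fell steeply with length. In transcripts under 60 bases (218 over all libraries) the median FPKM of a library was 250639, as the median over libraries. It was 5723 at 60 to 79 bases, 801 at 80 to 99, 52.5 at 100 to 149 and 9.08 at 150 to 199 bases. Transcripts of 200 to 299 bases had 2.67 FPKM and those of 300 to 999 bases 0.49. The median number of fragments had no such order, with 21.6 under 60 bases, 25, 15.2, 16.7 and 15.8 in the next bins and 14.0 at 200 to 299 bases. The effective length implied by FPKM and fragments was 0.0032 bases under 60 bases, 0.33 at 80 to 99, 32.6 at 150 to 199 and 531 at 300 to 999 bases. Transcripts under 60 bases thus held 65.3 to 94.4% of the FPKM sum of a library. Of the 539 short transcripts above 1000 FPKM, 487 were under 100 bases.

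**Figure D1:**
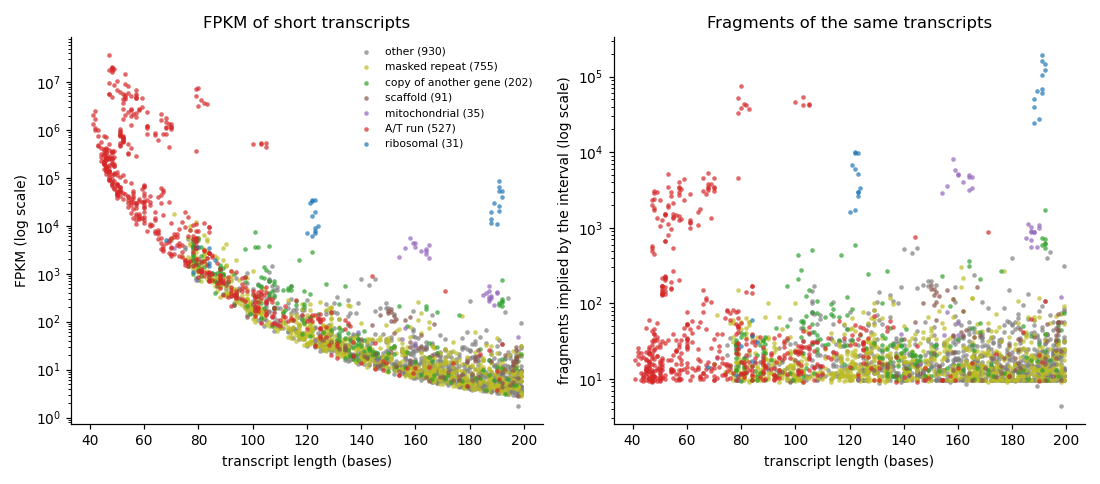
FPKM (left, log scale) and the number of fragments implied by the interval (right, log scale) of each of the 2571 short transcripts against transcript length in bases, coloured by sequence class with the number of transcripts in brackets. FPKM falls along a curve with length, from a median of 250639 under 60 bases to 9.08 at 150 to 199 bases, while 2097 of the transcripts rest on under 40 fragments.

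The coverage value of the files followed FPKM in rank but not in proportion. Within a library the Spearman correlation of FPKM with coverage was 0.986 to 0.991, with length -0.90 to -0.85 and with fragments 0.33 to 0.56, over 163 to 286 transcripts that share the depth of that library. Coverage per FPKM was 2.81 under 60 bases, 5.10 at 80 to 99 bases, 7.75 at 150 to 199 and 9.56 at 200 to 299 bases, against 9.91 from 3000 bases on. Effective length at a given length was alike in the median for rare and abundant transcripts. Those with at least 200 fragments were compared with those of the same library and length with under 60 fragments. Their effective length was a median of 1.02 times as large at 40 to 59 bases (23 transcripts with a match). It was 0.994 times at 150 to 199 bases (40 transcripts). At 100 to 149 bases the median was 0.997 times, with a range of 0.745 to 1.07 (19 transcripts).

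Values on both sides of the limit of 200 bases were of like size. The 311 transcripts of 190 to 199 bases had a median of 6.05 FPKM and 17 fragments, and the 342 of 200 to 209 bases had 4.16 FPKM and 14 fragments. At 199 bases (37 transcripts) the median was 5.92 FPKM, and at 200 bases (24 transcripts) 3.86 FPKM.

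Loci were sorted into 7 classes by their reference sequence, with rules chosen after the data were seen. Each locus went to the first class it met, in the order scaffold, A or T run, ribosomal, mitochondrial, masked repeat and copy of another gene. The 108 loci with an A or T run carried 99.75% of the short FPKM and 36.7% of the fragments, and 39 of them were found in at least 6 libraries. The 3 loci of ribosomal sequence carried 0.1397% of the FPKM and 56.9% of the fragments. Of the fragments 53.7% lay at 1 of them and 3.20% at the other 2. The locus with 53.7%, and the one near FBLN7 described below, were called ribosomal by their letters alone. The 9 mitochondrial copies carried 0.0107% of the FPKM and 3.35% of the fragments. Among loci not in these classes, masked repeats covered at least 50% of 298 loci with 0.837% of the fragments. Another 59 loci, not counted as masked, matched another annotated gene (0.785%), and 36 lay on scaffolds whose sequence was not used here (0.185%). The remaining 555 loci were of no such kind and carried 1.22% of the fragments, and 417 of them were found in 1 library.

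**Figure D2:**
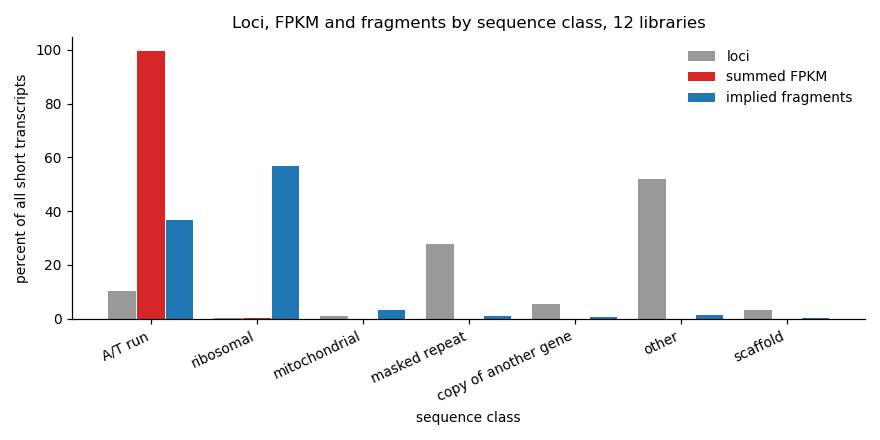
Percent of the 1068 short loci (grey), of their summed FPKM over the 12 libraries (red) and of their implied fragments (blue) in each of the 7 sequence classes. A or T runs hold 99.75% of the FPKM on 108 loci, and ribosomal sequence holds 56.9% of the fragments on 3 loci.

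The share of the short FPKM in A or T runs was 99.5 to 99.9% in every library, while their share of the short fragments was 19.3 to 63.0% and that of ribosomal sequence 27.5 to 77.1%. The A or T runs held 849 to 1315 normalised fragments per library and the ribosomal loci 456 to 3808.

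The locus near SLA-2 was the highest in 9 libraries. It was listed at 1.06e+07, 1.87e+07 and 3.71e+07 FPKM (lowest, median and highest pig) in H, and at 2.97e+06 to 2.09e+07 FPKM in the 5 L libraries that listed it. In L4 the place was covered by a longer transcript alone. These values rested on 1720 to 3033 fragments. The groups overlapped, and the highest value, in H5, stood apart from the other H libraries.

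The TENM2 locus was found in all libraries at 2.78e+06, 4.81e+06 and 6.92e+06 FPKM in H and 1.65e+06, 6.96e+06 and 1.48e+07 FPKM in L. It was the highest of library L4 with 9.03e+06 FPKM. The locus near MFAP5 was at 1.23e+06, 3.15e+06 and 4.45e+06 FPKM in H and 2.78e+06, 5.98e+06 and 8.58e+06 FPKM in L, and led in L5. Both loci overlapped between the groups, with adjusted p = 0.92 and 0.73 by limma.

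At the locus on chromosome 8 FPKM went with the length of the assembled transcript. In 7 libraries the transcript was 79 to 83 bases long and had 3.21e+06 to 7.64e+06 FPKM. In H3, H4, H6, L2 and L3 it was 100 to 105 bases long and had 4.42e+05 to 5.43e+05 FPKM. Its fragments, 33322 to 75954 in number and 619 to 1066 when normalised, did not fall into these 2 sets. The locus in a non-coding exon of TOX (chr4:73810271-73810317), a gene of a high mobility group protein, went further. In H5 it was 47 bases long with 498 fragments and 9.39e+06 FPKM, and in H4 it was 171 bases long with 877 fragments and 442 FPKM.

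The locus of PIBF1 had 10 to 26 fragments and a median of 1.01e+06 FPKM, and it held the shortest transcripts, of 41 to 43 bases. It was listed in 5 libraries of each group. Further loci of the highest 12 lay antisense in an intron of the non-coding RNA gene LOC106504887, in introns of GPX6, PLCB1, a phospholipase C gene, and ESX1, 237185 bases from the choline transporter gene SLC5A7, and antisense in an intron of ATP6V0A2, a proton pump subunit gene. Their medians over all libraries went from 251184 FPKM with 22 fragments, at ATP6V0A2, to 1531440 FPKM with 1276 fragments, at LOC106504887. The one in GPX6 had more fragments (3444) at 1143460 FPKM. The ATP6V0A2 locus was listed in 6 H and 3 L libraries with adjusted p = 0.65 by limma, the smallest of these 12 loci.

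**Figure D3:**
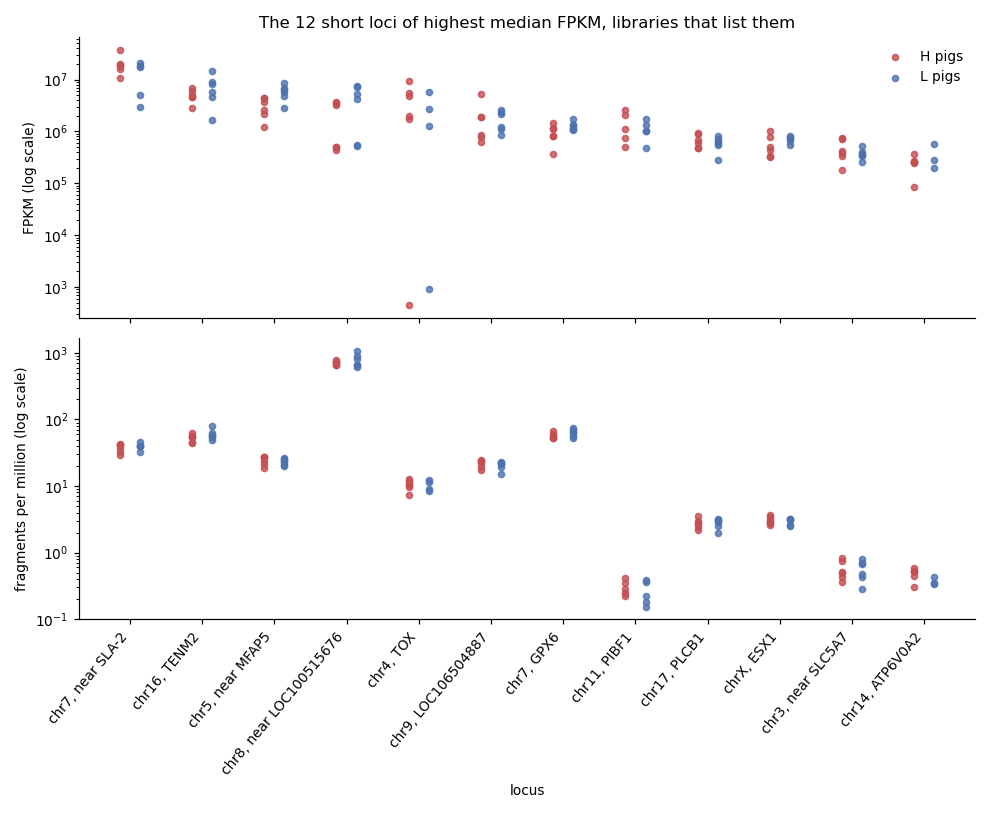
FPKM (top, log scale) and normalised fragments (bottom, log scale, scaled to 1000000 fragments of the library) of the 12 short loci of highest median FPKM, 1 point per library that lists the locus, H in red and L in blue. FPKM of a locus spreads by a median of 6.79 times between libraries and its fragments by 1.73 times, and the groups overlap at each locus in the upper panel.

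Across these 12 loci the highest FPKM of a locus was a median of 6.79 times its lowest listed value (range 3.25 to 21220), whereas its normalised fragments spread by 1.73 times (1.44 to 2.94). The FPKM spread was larger at 12 of the 12. At the 39 loci with an A or T run in at least 6 libraries the medians were 8.19 and 1.90 times, and at the 82 other loci in at least 6 libraries 3.42 and 2.35 times. The transcripts of these 39 loci differed between libraries by a median of 15 bases in length.

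Most short loci did not recur. Of the 1068, 675 were found in 1 library, 121 in at least 6 and 24 in all 12. The 24 held 45.5% of the short FPKM and 94.6% of the fragments, and the 19 loci in 11 libraries, the one near SLA-2 among them, held 41.3% and 1.75%. The 675 loci of 1 library held 1.18% and 1.07%. Where a library lacked a short transcript at a locus, a longer transcript lay over it in 4024 of 10245 cases (39.3%). This was so in 55.0% of the cases at annotated exons, 32.3% in introns, 27.7% between genes and 9.75% at A or T runs.

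By the NCBI RefSeq annotation 318 loci shared bases with an exon of a gene on the same strand or without strand, 468 lay in introns, 213 between genes, 14 antisense to an exon and 19 antisense in an intron. Of 218 single-exon loci at exons of protein-coding genes, 34 were coding throughout, 49 in part and 135 not at all. By transcript, 1447 lay in protein-coding genes, 138 in long non-coding RNA genes, 71 in pseudogenes, 30 in transcribed pseudogenes and 782 between genes. The 91 transcripts on scaffolds were not annotated here. Of all 27822 annotated genes 630 had a short locus in or antisense to them, and 63 had one in at least 6 libraries.

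Annotated small RNA genes were nearly free of short loci. None of 379 transfer RNA, miRNA, ribosomal RNA and 7SL genes had a short locus on its strand, nor did the 8 miRNA genes known from muscle. Over 780 small RNA genes on either strand there was 1 short locus, a spliced transcript of the ATP synthase membrane subunit gene USMG5 that spans MIR1307. Of 61 abundant muscle genes 11 had one, at exons of ALDOA, FHL1, MYOZ3, NEB, PKM, SRL and TTN and in introns of DES, MYBPC1, MYOM2, MYOZ3 and TNNT1, and none of these recurred in 6 libraries. Among these are genes of glycolytic enzymes, of sarcomere and Z-disc proteins and of the slow troponin T. Of 86 ribosomal protein genes RPL13A had an intronic one, and of 79 histone genes 5 had one.

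A few recurrent loci lay at exons of genes or pseudogenes and were named after their values were seen. A copy of the ubiquitin gene UBB in the pseudogene LOC106505121 (chr10:25807814-25807891) matched it at 97.4% over 78 bases and was listed in 10 libraries at 1544 to 5590 FPKM. A copy of the ribosomal protein gene RPL23A in the transcribed pseudogene LOC100520817 (chr1:110433388-110433475) matched at 96.6% over 88 bases and was listed in all 12 at 676 to 1499 FPKM. A wholly coding locus in SLA-3, another class I gene (chr7:22939316-22939422), was listed in 7 libraries at 161 to 1480 FPKM, and one at an exon of a gene that is annotated as CD99 but as a long non-coding RNA with no coding bases (chrY:5977948-5978074), in all 12 at 73.6 to 300.4 FPKM. Each of these 4 overlapped between the groups, with adjusted p of 0.88 to 0.99 by limma. Reads of such near-identical copies can be shared with their source genes, so these values are uncertain.

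The histone locus that recurred, at LOC100738859 (chr4:99169498-99169616, 96 coding bases), was found in 8 libraries at up to 460 FPKM in H and 437 FPKM in L. In the 6 genes with most short loci nearly all loci were intronic. DMD, the dystrophin gene, had 14, each in 1 library, SBK1 had 9, of which 6 were in H6, TRNAU1AP had 9, RBM24 had 8, and SSBP2 and TRDN had 6 each. CHD4 had 5, all at exons and all in L1.

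The number of short transcripts was 226 ± 36.5 in H and 203 ± 22 in L (mean ± SD, n = 6 pigs each, p = 0.22, exact permutation test, two-sided). They made up 0.580 ± 0.058% and 0.587 ± 0.036% of the transcripts of a library (n = 6, exact p = 0.82). Transcripts of all lengths numbered 38808 ± 3189 in H and 34471 ± 2002 in L (n = 6, exact p = 0.0087). More transcripts were assembled in H, while the difference in short ones stayed within the spread between pigs.

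The log10 of the summed short FPKM was 7.60 ± 0.12 in H and 7.56 ± 0.14 in L (n = 6, exact p = 0.59). The share of the FPKM sum was 99.07 ± 0.23% and 98.995 ± 0.31% (n = 6, exact p = 0.65) and that of the covered bases 50.4 ± 6.71% and 50.6 ± 6.54% (n = 6, exact p = 0.96). The median length was 140 ± 2.74 and 140.4 ± 5.14 bases (n = 6, exact p = 0.90). Normalised fragments in short transcripts were 3190 ± 1090 in H and 2297 ± 995 in L (n = 6, exact p = 0.17). Without L1, the highest L library at 4207, this difference was 1275 normalised fragments with exact p = 0.032. Without the 3 ribosomal loci it turned, with 1109 ± 77.5 in H and 1201 ± 179 in L (n = 6, exact p = 0.29). The smallest p that these tests can give is 0.0022.

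**Figure D4:**
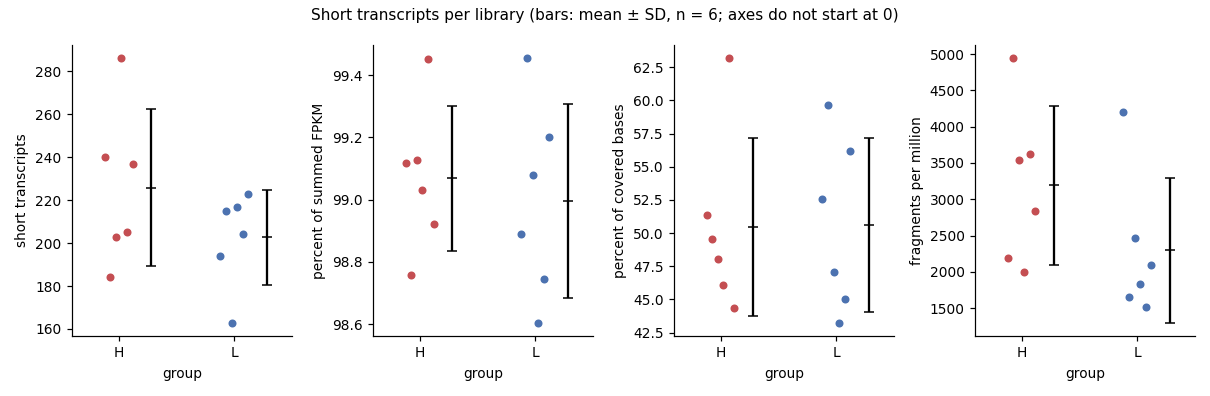
Number of short transcripts, their percent of the summed FPKM, their percent of the covered bases and their normalised fragments in each library of groups H and L (points), with the mean ± SD of 6 pigs as bars. The axes do not start at 0, and the groups overlap in each panel.

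Of the position classes the intronic transcripts differed most, with 84.2 ± 19.7 in H and 67.8 ± 13.7 in L (n = 6, exact p = 0.14, adjusted over 4 classes 0.55). Exonic (58.7 and 57.3), intergenic (67.8 and 62.5) and scaffold transcripts (7.83 and 7.33) had adjusted p of 0.69 to 0.80 by the same exact tests. Transcripts in protein-coding genes numbered 130 ± 23.7 and 112 ± 14.1 (n = 6, exact p = 0.15, adjusted over 4 biotypes 0.50). Ribosomal loci held 2080 ± 1069 normalised fragments in H and 1096 ± 951 in L (n = 6, exact p = 0.13, adjusted over 7 sequence classes 0.43), and the groups overlapped.

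Each locus found in at least 6 libraries was compared within a fit of 16080 transcript units of all lengths by limma on log2(FPKM + 0.5). Of the 121 short loci tested, 1 passed the adjusted p of 0.1, against 0.168% of all units (27). At an unadjusted p under 0.05 there were 7 short loci higher and 4 lower in H, where the background is 4.41% and 2.95% of all units. Both counts are near the background.

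The locus called was of ribosomal sequence, between genes at chr3:44269702-44269785, 2718 bases from the fibulin gene FBLN7. It reads as the 3′ part of the large subunit RNA, by its letters alone, since the annotation used held no entry for that RNA to compare it with.
chr3 near FBLN7: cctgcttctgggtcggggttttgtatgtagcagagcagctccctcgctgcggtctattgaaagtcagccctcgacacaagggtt
It was listed at 1079, 2548 and 5009 FPKM (lowest, median, highest) in H, at 1936 FPKM in L1, and not listed in the other 5 L libraries. The fitted difference was 10.22 ± 1.85 (SE) on the log2(FPKM + 0.5) scale, higher in H, with adjusted p = 0.083 by limma, and it depends on the value of 0.5 that stands in for the missing L transcripts. The values rest on 11 to 60 fragments. Without L1 its adjusted p was 8.0e-08, with all L libraries at 0, and with any other pig left out it was 0.13 to 0.23. The locus met the minimum of 6 libraries only through H, where it is high, so the filter itself favours this pattern. Its p-values are therefore no support for a difference between the groups.

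The loci next in order of p did not pass. The locus near SCN7A, a sodium channel gene (chr15:72944138-72944184), was listed in 5 H and 2 L libraries, up to 195888 FPKM in H and 48035 FPKM in L. That on chromosome X (chrX:64880099-64880176) was in 5 H libraries and L6, and the one 281 bases from RAPGEFL1 (chr12:22180460-22180647) in 5 H libraries and L5. The locus near SLC14A1, a urea transporter gene (chr1:95395958-95396082), was in all 6 H libraries at 45.9 to 134 FPKM and in 3 L libraries at up to 70.3 FPKM. The locus 547 bases from TMCC2 (chr9:65953153-65953272) was in all 6 L libraries at 32.9 to 57.97 FPKM and in 3 H libraries at up to 38.9 FPKM, and in the other 3 H libraries a longer transcript lay over it. Their adjusted p were 0.48 to 0.55 by limma. Their medians over the libraries were 4.80 to 15.3 fragments, with 0 where no short transcript was listed. Each of these loci met the minimum of 6 libraries mainly through the group that listed it more, so the same limit holds for their p-values.

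**Figure D5:**
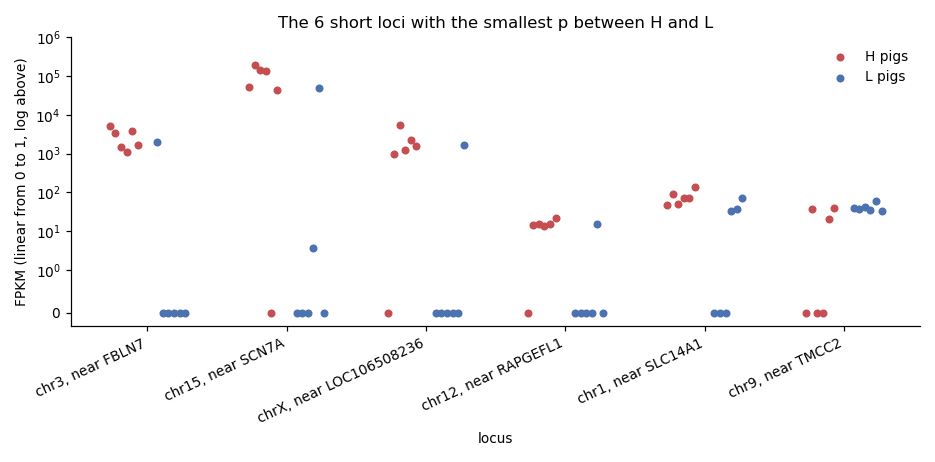
FPKM of the 6 short loci with the smallest p between H and L, 1 point per library (axis linear from 0 to 1 and log above, 0 where no short transcript was listed), H in red and L in blue. In 5 loci more H than L libraries list the transcript, and at the locus near TMCC2 all 6 L libraries do.

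A locus lay at an exon of the non-coding RNA gene LOC110261125, on the forward strand at chr6:85649448-85649553. It had more fragments in each H library than in any of the L libraries that listed it as a short transcript. It was named after its values were seen and gets no test of its own.
chr6 in LOC110261125: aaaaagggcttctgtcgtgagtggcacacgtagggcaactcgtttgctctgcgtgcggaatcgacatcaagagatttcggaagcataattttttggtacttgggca
It held 1.21 to 2.69 normalised fragments in H and 0.35 to 0.98 in the 4 L libraries that listed it. A longer transcript alone lay there in L1 and L4, whose fragments at this place were not counted and stand as 0. On the FPKM scale it was at 287, 708 and 1076 in H and 0, 287 and 455 in L, and its difference of 4.01 ± 1.86 (SE) had adjusted p = 0.68 by limma.

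Markers of other cell types were read beside the groups from transcripts of at least 200 bases. The summed FPKM of the erythroid markers was 83.1 to 308 in H and 69.5 to 167 in L (n = 6, exact p = 0.019), with SLC4A1 at 0 in all libraries. This p was the smallest among the marker sums and was not adjusted. Nearly all of that sum was HBB, with a mean of 212 of 214 FPKM in H. The sum of the adipocyte markers was 181 to 482 in H and 165 to 369 in L (n = 6, exact p = 0.16). Each of the 10 adipocyte and 5 endothelial markers had a higher mean in H. So did the 5 macrophage and 3 erythroid markers above 0, and 5 of the 8 skeletal muscle markers above 0. The macrophage and endothelial sums had p = 0.55 and 0.30 by the same exact permutation test. More transcripts were assembled in H, and the share of all genes with a higher mean in H was not counted. These counts are thus no result about the markers. In these bulk samples a different number of cells of a type and a different amount of RNA per cell cannot be told apart. The part of these markers in the group values of the short transcripts was not tested.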

How the data were processed

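Total RNA of longissimus dorsi from 12 pigs (6 H, 6 L, 1 library each) was sequenced in read pairs by the authors, who removed adaptors and poly(A) or poly(T) tails with Trim Galore, mapped to Sscrofa11.1 with TopHat 2.1.0 and assembled each library with Cufflinks 2.2.1, per the labels and the study's methods. The deposited files give for each transcript its exons, FPKM with a confidence interval, and coverage. They hold no counts and no scaling between libraries.

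Members and lists were chosen with earlier results of these data known. Length is the sum of exon lengths. The interval was taken as FPKM ± 2 SD, so the fragments implied are the square of FPKM over SD, an estimate that assumes counting error alone and was chosen after seeing the data. It fell within 0.1 of a whole number in 52.5% of 1605 short and 73.1% of 106381 longer transcripts that were alone at their locus and under 22 fragments. Mapped fragments were estimated from transcripts of at least 3000 bases with 16 to 128 fragments. Where reads are shared or variable, the estimate is too low. The build was checked on library H1, where 98.5% of 126617 introns had standard splice bases. Genes came from NCBI RefSeq of Sscrofa11.1, not the Ensembl annotation of the authors, and sequences from the reference. Scaffold names could not be mapped. The 18S and other matches (at least 90% identity over 80%) were found with BLAST 2.17.0. The locus near FBLN7 and the ribosomal locus that held 53.7% of the short fragments were assigned from their letters and not by such a match.

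Named loci were the 12 of highest median FPKM, those past limma or among the 6 smallest p, the highest of a library, those at small RNA, muscle, mitochondrial or histone genes in at least 6 libraries, and the shortest. Others are said to be named after their values were seen, and 1 ribosomal locus, which held 53.7% of the short fragments, is not reported here.

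Values per library were compared by an exact permutation test over all 924 arrangements, two-sided. Loci were compared with limma 3.58.1 (R 4.3.3, variance trend, Benjamini-Hochberg, threshold 0.1) on log2(FPKM + 0.5) over 16080 units of all lengths in at least 6 libraries with a group mean of at least 0.5 FPKM. FPKM were scaled by median ratios of transcripts of at least 200 bases, and a unit not listed was 0. In simulated data for H against L on 16080 units, 57% of units changed by 2 and 82% of units changed by 4 on the log2 scale were recovered, and 20% and 35% of the short ones. P-values measure the spread between pigs. Python 3.11.15 was used for the rest.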

Additional observations from a re-analysis of the deposited data

Results flagged for a closer look

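In 12 of 84 groups of 6 libraries tested, the highest or lowest library stood apart from the nearest other by more of the range of its group than Dixon's 95% critical value. That value is set to be passed in about 1 in 20 groups of normally spread values. It does not apply where only 1 library of a group lists a locus, since the ratio is then 1 whatever the value. The groups also share libraries, so the cases are not independent, and 12 of 84 cannot be read against a chance rate.

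Library H5 stood apart in 4 of them. Its summed short FPKM had a log10 of 7.84 where the median of H was 7.57, and its short transcripts held 63.2% of the covered bases. H5 was also highest at the locus near SLA-2 with 3.71e+07 FPKM and at the locus antisense in LOC106504887 with 5.34e+06 FPKM. Library L1 stood apart in 2, with 4207 fragments in short transcripts, scaled to 1000000 of the library, against a median of 1964 in L, and as the only L library to list the locus near FBLN7, at 1936 FPKM.

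The ESX1 locus was not listed as a short transcript in L2, a value of 0 against a median of 691158 FPKM in L. At the locus near SCN7A L5 was at 48035 FPKM with a median of 0 in L, and at the chromosome X locus L6 was at 1655 FPKM with a median of 0 in L. The locus near RAPGEFL1 was at 0 in H1 against a median of 14.6 FPKM in H, and at 15.2 FPKM in L5 against a median of 0 in L. At the locus near TMCC2 L5 was at 57.97 FPKM against a median of 38.0 in L.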

How the results depend on the processing

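The 7 values per library kept direction and side of the threshold in 106 comparisons with an alternative, and turned direction in 27. Only 2 alternatives newly passed 0.05, the normalised fragments without L1 and the median length with a limit of 150 bases. The share of short transcripts (H minus L) turned to 0.0293 percentage points with a limit of 250 bases and 0.0206 with at least 0.5 FPKM. The share of covered bases turned to 0.653 points without A or T runs. The median length turned to 6.42 bases with a limit of 150 bases (exact permutation p = 0.030), 3.83 with a limit of 250, 0.75 on chromosomes alone, 3.25 without A or T runs and 0.10 without H4 and L3, and normalised fragments to -53.8 with a limit of 150 bases and to -92.0 without ribosomal loci. Without H4 and L3, the libraries with most and fewest transcripts, 4 class counts turned: exonic -0.40, intergenic -0.20, scaffold -0.80 and no annotated gene, scaffolds included, -1.0.

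With 1 pig left out, H minus L ranged from 11.13 to 31.5 short transcripts, from -0.0189 to 0.0099 points for their share, from -0.0053 to 0.087 for log10 FPKM, from -0.0044 to 0.165 points for the FPKM share, from -2.73 to 1.62 points for covered bases, from -1.9 to 1.0 bases for median length and from 543 to 1275 normalised fragments (exact permutation p = 0.032 without L1). The number of short loci called ranged from 0 to 1, and that at p under 0.05 from 6 to 12. The 1 call was lost (0 called) when any pig but L1 was left out, and also with units in at least 1 or in all 12 libraries, with coverage or implied fragments for FPKM, with no variance trend, without H4 and L3, and with the replicate block. With longer transcripts at the locus included 4 of 537 were called, against 0.188% of all units. Under 0.05 were then 47 (8.75%, all units 7.35%), against 29 of 1059 with units in at least 1 library (2.74%, all units 4.29%), 1 of 24 in all 12 (4.17%, all units 7.76%), 6 of 102 without H4 and L3 (5.88%, all units 5.94%) and 11 of 121 in the comparison reported (9.09%, all units 7.36%). The adjusted p of the locus near FBLN7 ranged over its alternatives from 8.0e-08 to 0.40. The cause of these changes was not tested.

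The shared replicate numbers name different pigs, and deviations of same-numbered pigs correlated at -0.05 to 0.020 over all units and -0.32 to 0.055 over short loci. With the number as a replicate block 0 short loci were called (12 under 0.05). In 1 of 6 pairs over all units, and 0 over short loci, a pig correlated best with its number.

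Among fold changes of named loci 13 of 524 turned. With implied fragments the locus near MFAP5 went to 0.069 and that antisense in LOC106504887 to 0.097, which was 0.021 without H4 and L3. With 1 pig left out the latter ranged from -0.48 to 0.11, PIBF1 from -3.26 to 3.75 and ESX1 from -0.38 to 3.73. Most short transcripts rest on under 40 fragments, which limits what can be told apart. The fit recovered few short loci in simulated data, whose normal spread differs from that of the short loci.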

Other observations

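The highest transcript of a library held 32.6 to 55.3% of the short FPKM in H and 22.8 to 46.6% in L. The highest 5 transcripts held 76.0 to 89.2% in every library. At the A or T runs that had a strand (48 of 108), the run was of A on the forward strand in 16, of T on the forward strand in 10, of A in the forward sequence with the transcript on the reverse strand in 13 and of T in 9.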
